A study of Mus musculus with 16 samples.

Results

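To explore how m6A lies at the ends of coding sequences in inflamed macrophages, the peaks that cover a stop codon were taken from an m6A-methylated RNA immunoprecipitation sequencing (MeRIP-seq) experiment in mouse peritoneal macrophages (PMs). A peak is a stretch of a transcript on which reads pile up after RNA fragments have been captured with an antibody against m6A. Members were chosen by position alone, as every distinct peak whose region annotation in the deposited table includes a stop codon. This gave 2396 of 7069 peaks, or 33.9%, the largest of the region classes, ahead of 2244 peaks in coding sequence only, 1133 in 3′ untranslated regions only, 958 at start codons and 162 in 5′ untranslated regions. PMs came from thioglycolate-injected wild-type (WT) and Adap-/- mice and were left unstimulated (mock) or stimulated with LPS, the outer-membrane lipopolysaccharide of Gram-negative bacteria, at 1 μg/ml for 6 h. Each of the 4 groups (WT mock, WT LPS, Adap-/- mock and Adap-/- LPS) had 2 input libraries of fragmented RNA and 2 libraries captured with the antibody (IP), numbered as replicates 1 and 2, 16 libraries in all. All mice were young adult, sex-matched littermates on the C57BL/6 background. Adap-/- mice lack the adaptor protein ADAP, which the gene Fyb1 encodes, in every cell and not in macrophages alone, and all PMs of both genotypes had been drawn to the peritoneum by thioglycolate. The sources do not say whether replicates were separate mice, pools or dishes, so the p-values below measure the spread between these samples, which may be technical.

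m6A is a methyl group on adenosine that the METTL3-METTL14 complex, with WTAP and other partners, places on nascent mRNA. It can be removed by FTO or ALKBH5, and reader proteins of the YTH and IGF2BP families bind it and alter the stability or translation of the message. In mammalian mRNA it is known to gather around the stop codon and in the early part of the 3′ untranslated region, within long last exons, which exon junction complexes leave open to the writers.

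The 2396 stop codon peaks lay on 2253 of the 4943 genes in the table. A single stop codon peak was found on 2090 genes, 2 on 155 genes and 3 on 8 genes. Their median length was 200 bases (interquartile range 150 to 325), against 175 bases for all other peaks, and 109 of them (4.55%) were longer than 1000 bases, up to 113312 bases. The annotation placed 1039 (43.4%) over coding sequence, stop codon and 3′ untranslated region, 870 (36.3%) over stop codon and 3′ untranslated region, 410 (17.1%) over coding sequence and stop codon and 4 over the stop codon alone, while 73 also held a start codon. The median distance from the peak to the end of its gene was 1399 bases (interquartile range 512.25 to 2699). Chromosomes 11, 2 and 7 held the most, with 233, 201 and 173 peaks. Of the 2253 genes, 1285 had no other peak, 537 also had a peak in coding sequence, 303 in the 3′ untranslated region, 285 at the start codon and 60 in the 5′ untranslated region.

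The annotation is broader than the codon itself. Among the 131 genes with more than 1 stop codon peak of a single gene, 125 carried 2 or more separate, non-overlapping tagged peaks on 1 transcript, with a median smallest gap of 50 bases, so not every tagged peak can hold the codon. Peaks near the codon are therefore counted with those on it. Coordinates are given as in the deposited table (GRCm39), and no peak sequence is printed because no genome of that build was used here.

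Total reads on peaks ranged from 5728590 to 19030373 in the IP libraries and from 2121313 to 4325961 in the input libraries. Stop codon peaks took 47.7% to 49.1% of the reads in mock IP libraries, 50.9% to 52.1% in LPS IP libraries, 41.6% to 42.7% in mock input libraries and 50.4% to 52.6% in LPS input libraries. A stop codon peak had a median of 96 to 130 reads per input library, and 2392 of the 2396 passed the low-count filter. The others were Cox10, with at most 31 reads in any library, and the peaks annotated to Rnf139, Thada/Zfp36l2 and Usp18, which had 0 reads in all 16 libraries. Of 10 macrophage markers 9 had a peak of any class and Itgam had none, and their summed input level was 8830 to 9460 CPM (counts scaled to the library's size) in LPS and 18500 to 20100 in mock PMs. None of 10 neutrophil, 16 B and T cell or 12 eosinophil and mast cell markers had a peak, and of 11 fibroblast and mesothelium markers Pdgfra alone had one, with 26.1 to 82.5 CPM. Fyb1 had no stop codon peak. Of its 3 coding sequence peaks on chromosome 15, one had 502 to 618 input reads per WT library and 0 or 1 per Adap-/- library, and another had 254 to 318 against 1 to 5. The third, shared with ENSMUSG00000089647, had 164 to 186 in WT and 93 to 171 in Adap-/- libraries.

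The labels of 2 IP libraries were not borne out by the reads on peaks outside the stop codon class. On 113 peaks of transcripts whose input LPS raised by more than 5 log2 units in both genotypes, mock input libraries had 0.66% to 1.01% of the mean LPS level. In the IP libraries the LPS replicates reached 89.8% to 118%. The library labelled WT mock replicate 1 also had 95.6% and that labelled Adap-/- mock replicate 2 had 69%, whereas WT mock replicate 2 had 5.55% and Adap-/- mock replicate 1 had 8.29%. On 53 peaks of transcripts that LPS lowered, all 4 mock IP libraries had 79.5% to 114% of the mock level, and the WT LPS IP libraries had 27.4% and 16.3% against 6.87% and 8.06% in Adap-/- LPS. The IP libraries of these 2 mock replicates thus carry LPS-raised transcripts that their own input libraries lack. Counts of calls that involve mock PMs are therefore given with and without these replicates, called the mock replicates set apart. Without them each mock group holds 1 replicate, so the spread comes from the LPS groups alone and the lone mock replicate is assumed to vary like them.

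**Figure D1:**
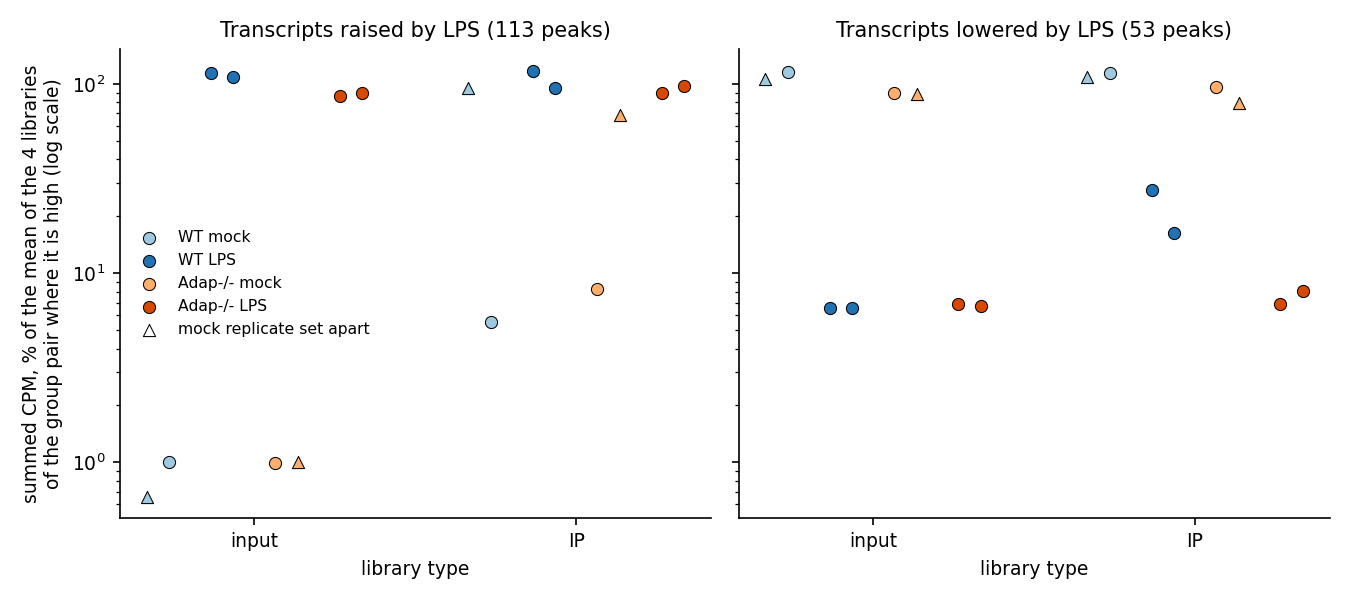
Summed reads on peaks outside the stop codon class, per library, as a percentage of the mean of the 4 libraries of the same kind in the treatment where the transcripts are high (log axis), for 113 peaks of transcripts raised and 53 lowered by LPS. Triangles mark WT mock replicate 1 and Adap-/- mock replicate 2, whose IP libraries reached 95.6% and 69% of the LPS level on the raised transcripts while their input libraries had 0.66% and 0.999%.

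To find out whether m6A capture was stronger at stop codons than elsewhere, the log2 ratio of IP to input was taken for each peak and replicate, from CPM scaled by the trimmed mean of M-values (TMM) plus 1 CPM. IP and input libraries of one number were taken as a pair, as the division of each RNA into input and IP implies, although the labels do not state that the numbers match. This scaling sets the typical peak near 0, so a negative ratio marks a peak captured less than the typical peak and not a peak without m6A. As a class, stop codon peaks were captured a little more strongly than peaks in 3′ untranslated regions, in every replicate. The median difference was 0.154 and 0.151 in Adap-/- LPS, 0.028 and 0.10 in Adap-/- mock, 0.086 and 0.099 in WT LPS and 0.078 and 0.066 in WT mock PMs. The mean was 0.096 ± 0.042 log2 units (SD, n = 8; exact two-sided sign-flip permutation test, p = 0.00781, the smallest that 8 replicates allow, and 0.0469 after Benjamini-Hochberg adjustment over the 6 tests of level). Against all other peaks the median difference was 0.042 ± 0.060 (n = 8; exact permutation p = 0.102, adjusted 0.167), above 0 in 6 of 8 replicates. With the WT mock numbers crossed, the difference from 3′ untranslated peaks was 0.090 (exact permutation p = 0.00781). With only peaks of 1 gene it was 0.077 (exact permutation p = 0.0156, adjusted 0.0702), so the call was lost. Within 260 genes that had both kinds of peak, the median difference was 0.06 in LPS and −0.01 in mock PMs. Peak lengths were not matched in these comparisons.

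Set against coding sequence peaks, stop codon peaks differed by 0.040 ± 0.110 (n = 8; exact permutation p = 0.336). The sign of this difference followed the treatment. It was −0.050 and −0.048 in Adap-/- LPS and −0.047 and −0.097 in WT LPS replicates, and 0.171 and 0.121 in Adap-/- mock and 0.127 and 0.145 in WT mock replicates, so LPS and mock did not overlap. The LPS mean was 0.20 log2 units below the mock mean (exact permutation p = 0.0556 with labels exchanged within genotype, the smallest that 36 arrangements allow), and this split was tested after it had been seen. Without the mock replicates set apart, the difference was −0.22 with p = 0.111 by the exact permutation test, and with means in place of medians the LPS value was 0.01 (−0.01 to 0.04), no longer below 0. The medians of the stop codon peaks themselves stayed between 0.03 and 0.10 in all 8 replicates, while those of coding sequence peaks were 0.08 to 0.13 in LPS and −0.12 to −0.02 in mock PMs. Between genotypes the stop codon medians differed by 0.030 (Adap-/- minus WT; exact permutation p = 0.111) and between treatments by −0.023 (LPS minus mock; exact permutation p = 0.222). Peaks in 5′ untranslated regions had the highest median among the 5 classes plotted, 0.47 (0.33 to 0.61 over the replicates).

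**Figure D2:**
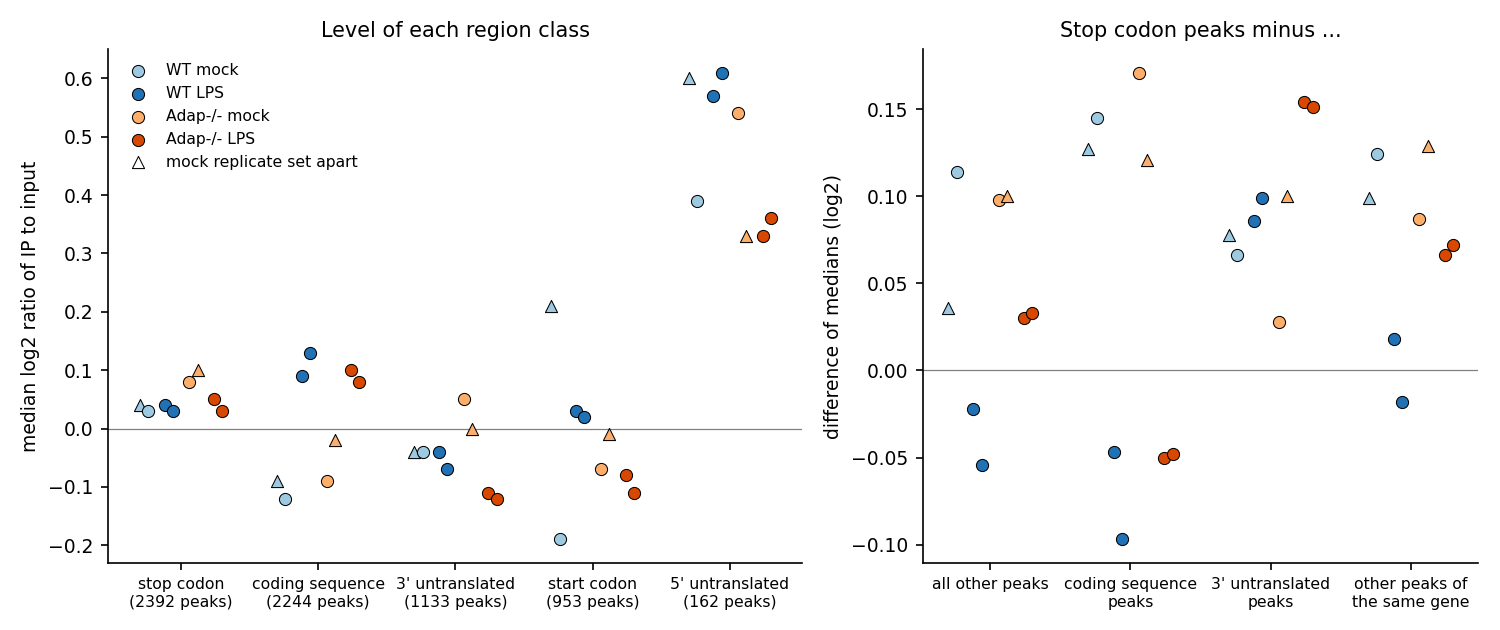
Left, the log2 IP-to-input ratio as a median over the peaks of each region class, 1 point per replicate; right, the median of stop codon peaks minus that of other classes, and the median within-gene difference, in log2 units. Triangles mark the mock replicates set apart; stop codon medians lie between 0.03 and 0.10, and the difference from 3′ untranslated peaks is above 0 in all 8 replicates.

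Within the stop codon class the level depended on where the peak reached. Peaks that ran into coding sequence were higher, with a median of 0.14 for those over coding sequence, stop codon and 3′ untranslated region (0.12 to 0.19 over the 8 replicates, 1035 peaks) and 0.15 for those over coding sequence and stop codon (0.06 to 0.24, 409 peaks). Peaks over stop codon and 3′ untranslated region had −0.08 (−0.11 to −0.02, 870 peaks). In every replicate the last group lay below both others. Longer peaks were captured more, from a median of −0.27 in 366 peaks of at most 100 bases and −0.34 in 281 peaks of 100 to 150 bases to 0.44 in 373 peaks of 300 to 500 bases. Above 1000 bases the 105 peaks had −0.32, with −1.02 in Adap-/- LPS and −0.67 in WT LPS against 0.30 in Adap-/- mock and 0.12 in WT mock PMs. Among 2091 stop codon peaks with at least 10 reads in every input library, the mean level correlated with length (Spearman's rho 0.44) and with mean input (rho −0.33), over peaks that share libraries and are not independent.

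Next, stop codon peaks were set against the other peaks of the same genes, which removes differences between transcripts. Over 799 genes with both kinds of peak, the median within-gene difference was 0.066 and 0.072 in Adap-/- LPS, 0.087 and 0.129 in Adap-/- mock, 0.018 and −0.018 in WT LPS and 0.099 and 0.124 in WT mock PMs. Its mean of 0.072 ± 0.051 (n = 8) was above 0 in 7 replicates (exact permutation p = 0.0234, adjusted 0.0703). The stop codon peak was the stronger of the 2 kinds in 429 genes (53.7%), in all 8 replicates in 157, and it was the weaker in all 8 in 103. The partner mattered. Against coding sequence peaks of the same gene (460 genes) the median was 0.15 in LPS and 0.26 in mock PMs, against the 3′ untranslated region (260 genes) 0.06 and −0.01, against the start codon (215 genes) −0.24 and −0.04, and against the 5′ untranslated region (48 genes) −1.33 and −0.63.

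Single genes departed far from these medians. Saa3, an acute-phase serum amyloid that macrophages make after LPS, had a stop codon peak 4.50 ± 1.21 log2 units (n = 8) above its 3′ untranslated peak. That stop codon peak also covers the 5′ untranslated region and the start codon, so the difference cannot be assigned to the stop codon alone. Hexim1, an inhibitor of the elongation factor P-TEFb, had a stop codon level 2.56 ± 0.31 above that at its start codon, and Jun, an AP-1 transcription factor, one 2.49 ± 0.49 above. The stop codon peak of Ptafr, the receptor for platelet-activating factor, was 2.36 ± 0.49 above that of its coding sequence. In the opposite direction, Bhlhe40, a transcriptional repressor, had −0.67 at its stop codon and 1.71 in its coding sequence, a difference of −2.38 ± 0.35. Chd2, a chromatin remodeller, had 0.35 at its stop codon and 2.09 in its 3′ untranslated region. Spart, Tspyl1 and the deubiquitinase gene Usp47 had differences of −1.93 ± 0.53, −1.78 ± 0.67 and −1.69 ± 0.73. In Slco3a1, an organic anion transporter with 5 coding sequence peaks, the difference of 2.08 ± 1.77 ran from −0.77 to 4.79 over replicates, so its sign was not held by all of them.

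Stop codon peaks also differed widely from gene to gene. Among the 2091 with at least 10 input reads in every library, the mean log2 ratio had a median of −0.05, with 5% of peaks below −1.12 and 5% above 1.19, and the other 3589 such peaks had a median of −0.17. The ratio was above 0 in all 8 replicates for 467 peaks (22.3%) and below 0 in all 8 for 451 (21.6%). It was above 1 in all 8 for 44 peaks and below −1 in all 8 for 14. In 105 genes with several such stop codon peaks, these differed by a median of 0.41, and by 2.33 at most, in Nfe2l1, a transcription factor for proteasome genes.

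The strongest capture among stop codon peaks was that of Saa3 (chr7:46364351-46365118). Its annotation runs over 767 bases from the 5′ untranslated region and start codon through coding sequence to the stop codon. The signal of this peak thus cannot be assigned to the stop codon alone. Its log2 ratio was 2.81 and 2.96 in Adap-/- LPS, 4.42 and 2.65 in Adap-/- mock, 3.47 and 3.73 in WT LPS and 3.07 and 4.05 in WT mock PMs. Mocs3 (chr2:168073691-168074041), which serves molybdenum cofactor synthesis and tRNA thiolation, had 2.94 and 3.01 in Adap-/- LPS, 2.59 and 2.54 in Adap-/- mock, 2.49 and 3.06 in WT LPS and 2.43 and 2.14 in WT mock PMs. All 8 values of both peaks were thus above 2, with a mean of 3.40 ± 0.63 for Saa3 and 2.65 ± 0.32 for Mocs3. Htra2 (chr6:83028246-83028663), a mitochondrial serine protease, had 2.81, 2.43, 2.67, 2.18, 2.55, 2.46, 2.09 and 2.13 in the same order of groups. Hexim1 (chr11:103008706-103008981) had 2.19, 2.42, 2.37, 1.94, 2.01, 2.42, 2.33 and 2.34, the narrowest spread of the 10 highest peaks, with a mean of 2.25 ± 0.19. The remaining peaks of the highest 10 were those of Cln8, an endoplasmic reticulum protein (2.12 ± 0.29), Thap7 (2.11 ± 0.22), the ubiquitin ligase Herc2 (2.1 ± 0.40), the nuclear receptor Ppard (2.04 ± 0.35), APOL3 (1.96 ± 0.35) and Znf503 (1.85 ± 0.55). The annotation of 9 of these 10 peaks runs from coding sequence over the stop codon into the 3′ untranslated region.

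At the low end, the 3686-base peak shared by Ist1, an ESCRT-III factor, and Pkd1l3 had a mean of −3.28 ± 1.39. The dipeptidase gene Dpep2 had −2.81 ± 0.74, Taf10, a TFIID subunit, had −2.74 ± 0.74 and Sh3bgrl3 had −2.68 ± 0.60. Idh1, cytosolic isocitrate dehydrogenase, was uneven between groups, with −3.18 and −1.36 in Adap-/- LPS, −5.44 and −3.76 in Adap-/- mock, 0.15 and −0.69 in WT LPS and −2.77 and −4.09 in WT mock PMs. Its WT LPS replicates were the highest of the 8, and its mean over all was −2.64 ± 1.88.

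**Figure D3:**
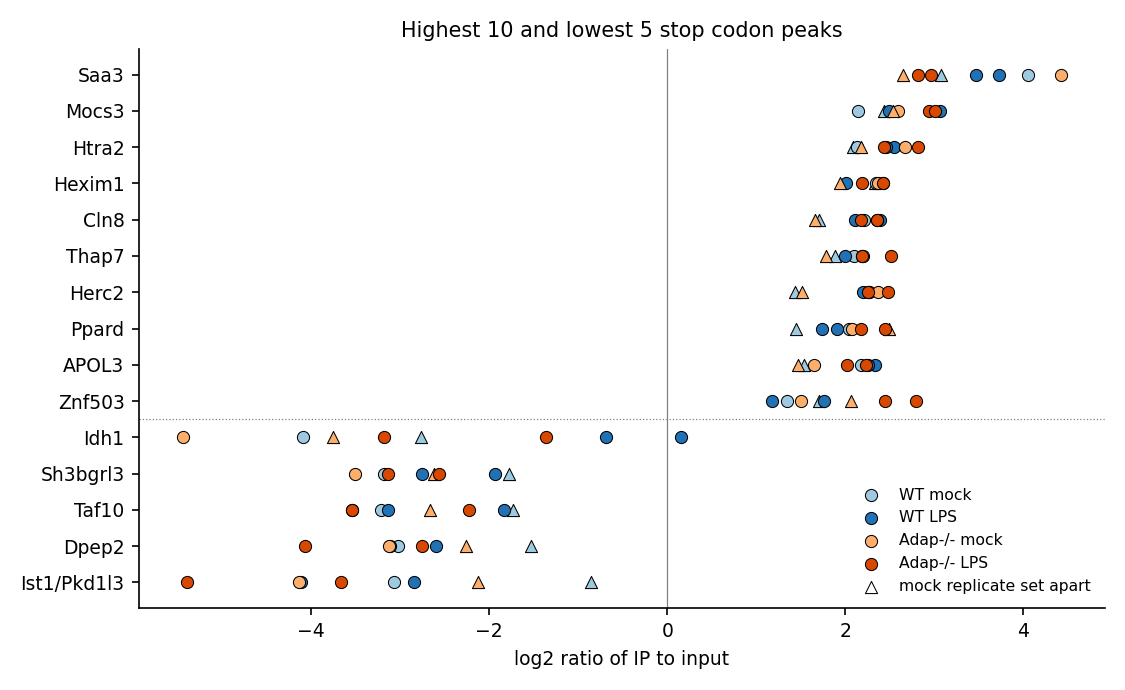
Log2 ratio of IP to input in each replicate for the 10 stop codon peaks with the highest and the 5 with the lowest mean among those with at least 10 reads in every input library. Triangles mark the mock replicates set apart; Saa3 leads with a mean of 3.40, and Idh1 has its highest values, 0.15 and −0.69, in WT LPS.

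Whether loss of ADAP altered m6A capture at stop codons after LPS was asked with a fit over all peaks, in which the IP-to-input ratio of Adap-/- LPS PMs was set against that of WT LPS PMs (edgeR quasi-likelihood test on counts, Benjamini-Hochberg adjustment over 7058 peaks). At an unadjusted p below 0.05 and any fold there were 168 stop codon peaks (7.02%), beside 7.13% of all peaks. A single stop codon peak, lower in Adap-/- LPS PMs, had an adjusted p below 0.05 (0.0142% of all peaks, 0.0418% of stop codon peaks). This call was lost without the mock replicates set apart, which only lend their spread to this comparison, and also with IP and input pairs as a block, with only the compared libraries and without WT LPS replicate 1, Adap-/- mock replicate 1 or Adap-/- mock replicate 2. In bulk samples, fewer cells of a type and less RNA per cell cannot be told apart.

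At the thresholds of over 2-fold and an unadjusted p below 0.05 (the unadjusted thresholds), 21 stop codon peaks had a higher and 60 a lower ratio in Adap-/- LPS than in WT LPS PMs, 0.878% and 2.51% of 2392, beside 1.32% and 2.82% of all peaks. Steap3, an endosomal ferrireductase (chr1:120155369-120155494), was among the lower peaks. Its log2 ratio was 0.81 and 0.18 in WT LPS and −2.65 and −3.15 in Adap-/- LPS replicates, from 128 and 155 against 9 and 0 IP reads and 26 and 20 against 22 and 17 input reads. In mock PMs it had −2.02 and −1.45 in WT and −1.90 and −1.97 in Adap-/-. The WT LPS replicates alone were above 0, and the fitted difference of −5.35 (standard error 0.75) had an edgeR adjusted p of 0.0609.

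The following peaks, also past the unadjusted thresholds, had an edgeR adjusted p of 0.129 or more. ARIH1, a ubiquitin ligase, had −2.05 and −2.15 in Adap-/- LPS and −0.55 and −0.97 in WT LPS PMs. Etfrf1, a mitochondrial regulator of electron transfer flavoprotein, had −1.43 and −1.92 against −0.17 and −0.32. Epb41l1, a cytoskeletal protein of the band 4.1 family, had −1.41 and −2.02 against 0.00 and 0.54. The Adap-/- LPS replicates of these 3 peaks were below all other 6 replicates. On the higher side, Fbxo46, an F-box protein, had 2.34 and 2.26 in Adap-/- LPS and 1.29 and 1.09 in WT LPS PMs, and Znf503, a zinc finger factor, 2.44 and 2.79 against 1.18 and 1.76. ENSMUSG00000045763 had 1.14 and 1.32 against −0.09 and 0.02 (adjusted p = 0.379, and 0.0724 by edgeR without the mock replicates set apart). Fbrs had 0.99 and 0.87 against −0.19 and 0.05, and the peak of Tmem120b shared with Rhof 1.68 and 1.11 against 0.19 and 0.51.

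**Figure D4:**
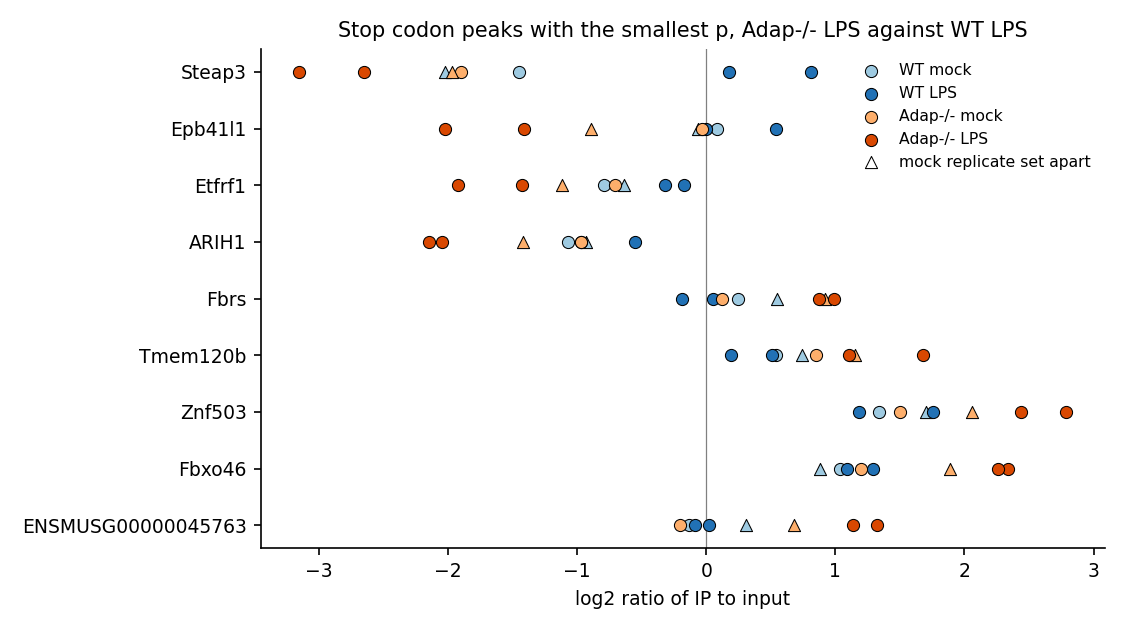
Log2 ratio of IP to input in each replicate for stop codon peaks with the smallest p, Adap-/- LPS against WT LPS, among those past the unadjusted thresholds but with an adjusted p of 0.05 or more and at least 10 reads in every compared input library. Triangles mark the mock replicates set apart; for Steap3 the WT LPS replicates lie above 0 and all other replicates below −1.

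Without LPS, the genotypes differed at few stop codons. At the unadjusted thresholds 7 peaks had a higher and 7 a lower ratio in Adap-/- mock than in WT mock PMs (0.293% each), beside 0.680% and 0.595% of all peaks. None had an edgeR adjusted p below 0.05, and DESeq2 made no call either. An unadjusted edgeR p below 0.05 at any fold was found for 34 of 2392 stop codon peaks (1.42%). Over all peaks it was found for 148 of 7058, a larger share. Phf21a, a reader of unmethylated histone H3, had 0.43 and 0.28 in Adap-/- mock and −1.10 and −0.76 in WT mock PMs. The pseudokinase gene Peak1 had −0.39 and −0.69 against 1.14 and 1.16. Both kept their direction, with fitted differences of 1.31 and −1.63 without the mock replicates set apart, where the count at the unadjusted thresholds was 32 higher and 10 lower, beside 1.52% and 0.765% of all peaks. Rara, the retinoic acid receptor alpha, had a fitted difference of 1.01, and 0.41 without those replicates. The cell adhesion molecule Vcam1 had −1.32 and −1.16, Crem −1.03 and −0.33, and Cdc27, a subunit of the anaphase-promoting complex, −1.35 and −0.35. VPS13D, Zhx2 and Emsy had 1.02, 1.18 and 1.48, and 0.97, 0.72 and 1.52 without those replicates. The peaks named here, Phf21a and Peak1 among them, no longer passed the unadjusted thresholds without them.

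With LPS more stop codon peaks had a lower than a higher ratio, in shares close to or under those of all peaks. In WT PMs 41 stop codon peaks had a higher and 114 a lower ratio after LPS at the unadjusted thresholds, 1.71% and 4.77%, beside 2.69% and 5.13% of all peaks. The Adap-/- PMs had 31 higher and 99 lower peaks, 1.3% and 4.14%, beside 2.44% and 4.56%. The counts without the mock replicates set apart were 38 and 73 in WT (2.66% and 3.00% of all peaks) and 37 and 106 in Adap-/- PMs (3.06% and 4.52% of all peaks). None passed an edgeR adjusted p of 0.05 with all libraries. DESeq2, also with the mock replicates set apart included, called 72 in WT and 47 in Adap-/- PMs. Its share over all peaks is not given here, so these counts are not read as particular to stop codons. With all libraries, 227 in WT and 233 in Adap-/- PMs had an unadjusted edgeR p below 0.05. These were 9.49% and 9.74%, beside 10.8% and 11.5% of all peaks. With IP and input pairs as a block edgeR called 2 in each genotype. Of the 114 lower peaks in WT PMs, 112 had higher input after LPS, and of the 41 higher peaks 33 had lower input. Among the 99 lower peaks in Adap-/- PMs 78 had higher and 6 lower input, and of the 31 higher peaks 15 had lower and 2 higher input. On most of these peaks the input thus moved opposite to the ratio, and its part in the result was not tested.

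Without the mock replicates set apart, edgeR called 1 higher and 26 lower stop codon peaks in WT PMs (adjusted p below 0.05; 0.113% and 0.822% of all 7060 peaks, 0.0418% and 1.09% of stop codon peaks). In Adap-/- PMs it called 1 higher and 47 lower (0.156% and 1.27% of all peaks, 0.0418% and 1.96% of stop codon peaks). All 26 and 45 of the 47 lower peaks had higher input after LPS. Cmpk2, a mitochondrial nucleotide kinase induced by interferon, fell by 2.33 log2 units in WT (adjusted p = 0.000898) and by 2.71 in Adap-/- PMs (edgeR adjusted p = 0.000262). Its ratio was −1.34 and −1.40 in WT LPS, −1.40 and −1.47 in Adap-/- LPS, 0.90 in WT mock replicate 2 and 1.23 in Adap-/- mock replicate 1, and 5.19 and 3.63 in the mock replicates set apart. Pydc3, an interferon-inducible pyrin-domain gene, fell by 3.61 and 3.45 log2 units, and the inhibitory DNA sensor gene Pyhin1 fell by 1.99 in Adap-/- PMs. Gbp5, a guanylate-binding protein, fell by 2.61 in Adap-/- PMs (adjusted p = 0.00089), and Ifit3, an interferon-induced antiviral protein, fell by 2.08 and the myeloid receptor gene Tarm1 by 3.37 in WT PMs. Slco3a1 fell by 5.09 in WT PMs (edgeR adjusted p = 0.00314), against 4 input reads in WT mock replicate 2. Edn1, endothelin 1, was called in Adap-/- PMs against a single mock library with 0 input reads, so no fold is given.

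For highly induced genes the size of the change rested on the mock replicates set apart. Mx1, an antiviral GTPase, had a log2 change of −7.45 in WT PMs with them and −4.12 without them (edgeR adjusted p = 0.012). Its IP libraries held 8809 reads in WT mock replicate 1 and 939 in replicate 2, from 87 and 109 input reads. Rsad2, the antiviral enzyme viperin, went from −7.34 to −3.94 (adjusted p = 0.0336) and the activation marker Cd69 from −7.13 to −3.86 (edgeR adjusted p = 0.11). In Adap-/- PMs the chemokine gene Cxcl10, on a peak shared with Art3, went from −8.42 to −6.37 (adjusted p = 0.00542) and Il1b, interleukin 1 beta, from −9.05 to −5.91 (edgeR adjusted p = 0.0156), with 2233 and 15802 IP reads in the Adap-/- mock replicates.

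Nfkbil1, which encodes an inhibitor-of-NF-kB-like protein, moved with a much smaller range. Its 200-base peak (chr17:35439150-35439350) had −1.74 and −1.59 in WT LPS and −1.76 and −1.22 in Adap-/- LPS, and 1.24 and 0.03 in WT mock and 0.59 and 0.25 in Adap-/- mock PMs. All LPS replicates were below all mock replicates. With all libraries the fitted changes were −2.31 in WT and −1.93 in Adap-/- PMs (edgeR adjusted p = 0.12 and 0.235). Without the mock replicates set apart it fell by 1.76 (adjusted p = 0.0336) and by 2.16 (adjusted p = 0.0127, both by edgeR), and a second, 275-base peak of the gene fell by 1.61 in WT PMs (edgeR adjusted p = 0.0418).

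Higher ratios after LPS were fewer. Without the mock replicates set apart, ENSMUSG00000045763 was the only higher stop codon peak called in Adap-/- PMs, where it rose by 1.38 (edgeR adjusted p = 0.0164). The amino acid transporter gene Slc43a2 had 0.60 and 0.04 in WT LPS and −0.70 and −0.68 in WT mock PMs, and the inositol phosphatase gene Inpp5f 0.58 and 0.03 against −1.28 and −1.37. The peak of Tmem154 shared with Arfip1 had 1.06 and 0.06 against −1.33 and −0.92. In Adap-/- PMs the transcription factor Foxo3 had 0.02 and 0.19 after LPS and −1.06 and −0.99 without it. Hjurp, a chaperone of centromeric histone, had 0.74 and 1.17 against −0.79 and −0.02, and Il6st, the shared receptor subunit gp130, 0.77 and 0.40 against −0.54 and −0.91. Marchf8, a membrane ubiquitin ligase, had a fitted change of 1.00. On the lower side of the Adap-/- response, Mrpl58, a release factor of the mitochondrial ribosome, had −1.63 and Pik3r6, a regulatory subunit of PI3-kinase gamma, −1.20. The edgeR adjusted p of these 9 genes was 0.207 or more with all libraries. Leaving out the mock replicates set apart gave fitted changes of 0.96 for Slc43a2, 1.71 for Inpp5f and 1.53 for Tmem154 in WT PMs. The same fit gave, in Adap-/- PMs, 1.16 for Foxo3, 1.75 for Hjurp, 1.12 for Il6st, 0.96 for Marchf8, −1.28 for Mrpl58 and −1.34 for Pik3r6. Slc43a2 and Marchf8 then missed the 2-fold threshold.

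Whether the LPS response of the ratio differed between genotypes was tested as an interaction, which shares its control libraries with the comparisons above. At the unadjusted thresholds 20 stop codon peaks had a higher and 38 a lower LPS response in Adap-/- than in WT PMs, beside 1.02% and 1.74% of all peaks. The counts were 25 and 40 without the mock replicates set apart, beside 1.67% and 2.17%. No stop codon peak had an edgeR adjusted p below 0.05, and DESeq2 called 1. With all libraries, 72 had an unadjusted edgeR p below 0.05 (3.01%), beside 3.23% of all peaks. Steap3 had a difference of −5.10 (edgeR adjusted p = 0.676), so its genotype difference after LPS is not shown to differ from that in mock PMs. Pik3r6 had −1.70, Jkamp −2.13 and ARIH1 −1.18. Ambra1, an autophagy regulator, had a difference of 1.39, Zfp646 2.23, the pseudokinase gene Trib3 1.05, Sema4c, a semaphorin, 2.37 and Tlr8, an endosomal receptor for RNA, 1.24. Without the mock replicates set apart, Steap3, Pik3r6, Jkamp and ARIH1 had −4.87, −1.85, −2.07 and −1.48, and Ambra1 and Zfp646 had 1.16 and 2.44. Trib3, Sema4c and Tlr8 had 0.93, 1.17 and 1.09 and no longer passed the unadjusted thresholds.

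The transcripts that carry a stop codon peak changed strongly with LPS in the input libraries, where reads on a peak follow the level of the transcript (edgeR, adjusted p below 0.05 and over 2-fold, 2355 stop codon peaks tested). In WT PMs 457 peaks were higher and 390 lower after LPS, 19.4% and 16.6%, beside 21.3% and 15.6% of all 6794 peaks. In Adap-/- PMs 421 were higher and 333 lower, 17.9% and 14.1%, beside 19.6% and 13.3%. These changes are relative to the typical peak, since TMM scaling sets the LPS input libraries at 0.65 to 0.74 and the mock input libraries at 1.37 to 1.51 of their total reads. With library totals every log2 fold change between LPS and mock would be 1.07 lower in WT and 1.05 lower in Adap-/- PMs. Nos2, inducible nitric oxide synthase, rose in WT PMs from 0 and 2 input reads to 980 and 1352 on its shorter peak, a ratio of 1384 (95% counting interval 383 to 11432, which covers counting error only). Il12a, the p35 subunit of interleukin 12, rose from 0.940 and 2.33 to 2031 and 1363 CPM, a log2 fold change of 10.00 (standard error 0.33). A 75-base peak of Pydc3 rose from 0 reads in both WT mock libraries to 406 and 314, at least 142-fold against a floor of 3 reads per library, and the homeobox gene Lhx2 rose at least 51.6-fold.

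In Adap-/- PMs Csf3, which encodes the granulocyte growth factor G-CSF, rose at least 106-fold from 0 mock reads, the serine protease inhibitor gene Serpina3f at least 63-fold and Il6 by 10.39 log2 units, from 0.625 and 0.575 to 801 and 923 CPM. Transcripts that fell included Kif19, a kinesin, from 63.9 and 52.5 to 1.07 and 2.06 CPM in WT PMs (log2 fold change −5.21) and by a ratio of 88 in Adap-/- PMs (95% counting interval 24.1 to 731). Cd300lb, an activating receptor of myeloid cells, fell from 926 and 865 to 26.0 and 26.9 CPM in Adap-/- PMs, and the lysosomal sulfamidase gene SGSH from 27.5 and 26.2 to 1.28 and 0 CPM. Foxred2 fell by 4.81 log2 units there. The transcription factor Bach2 fell at least 2.39-fold in Adap-/- PMs, and Tenm4 and Tanc2 fell at least 3.47-fold and 2.64-fold in WT PMs. Gpr160 and Naip1, the latter a sensor of the inflammasome, fell in WT PMs by ratios of 57.3 (9.94 to 2296) and 34.6 (5.86 to 1398).

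Between genotypes after LPS, 33 stop codon peaks had higher and 48 lower input in Adap-/- PMs, 1.4% and 2.04%, beside 1.25% and 1.31% of all peaks. Cxcl3, a neutrophil-attracting chemokine, had 6129 and 8172 CPM in Adap-/- LPS against 2253 and 1627 in WT LPS PMs, a log2 fold change of 1.88 (standard error 0.16, edgeR adjusted p = 8.11e-07). The cytokine gene Lif rose by 2.27 (standard error 0.60, edgeR adjusted p = 0.0157), and ZNF20 by 2.22. Lif had 7.38 and 11.8 CPM against 0.357 and 3.72 in WT LPS PMs, the latter from 1 and 9 reads. Gadd45g, a stress-response gene, was lower, with 26.3 and 22.8 against 98.8 and 85.9 CPM (log2 fold change −1.90, edgeR adjusted p = 4.8e-07). RHOV, a small GTPase, fell by 1.97 (adjusted p = 5.62e-05 by edgeR), Sh3bp5l by 1.79 and the 2 peaks of ENSMUSG00000007682 by 2.03 and 1.84. The largest fitted value, 7.39, was that of a peak on chromosome 18 shared by ENSMUSG00000059040 and ENSMUSG00000118267. The first is deposited as Eno1, the symbol of the glycolytic enzyme enolase 1. This peak had 118 and 350 CPM in Adap-/- LPS, 198 and 597 in Adap-/- mock and 0.940 to 1.43 in all WT libraries. Enolase genes have near-identical copies, so the origin of these reads is uncertain.

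In mock PMs 45 stop codon peaks had higher and 18 lower input in Adap-/- than in WT, 1.91% and 0.764%, beside 1.84% and 1.00% of all peaks. Rasgrp1, a Ras activator, had 4.06 and 8.91 CPM in Adap-/- against 0.313 and 1.33 in WT PMs, and Ltbp1, which binds latent TGF-beta, 11.3 and 13.8 against 1.88 and 2.0. Both rose, by 2.96 and 2.67 log2 units. Tarm1 rose by a ratio of 10.2 (95% counting interval 2.51 to 89.6) and Pydc3 at least 1.09-fold from very few reads. Lower were the 2 peaks of Serpina3g, a protease inhibitor (−2.21 and −2.07), the channel gene Calhm6 (−1.81), GNG11, a G protein gamma subunit (−1.62), and Rhoh, a haematopoietic GTPase (−1.36).

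Gene lists were then read across the class, and each count stands beside that of all stop codon peaks above. Of 39 cytokine and chemokine genes, 28 had a peak and 21 a stop codon peak. Input on 18 of these 21 peaks rose and on 1 fell after LPS in WT PMs (median log2 fold change 5.79, against −0.08 for all stop codon peaks), and 19 rose and 1 fell in Adap-/- PMs (median 6.41, against −0.07). Tnf went from 371 and 381 to 45924 and 34862 CPM in WT PMs, and Il1a, Ccl3 and Ccl5 rose by 5.10, 6.18 and 5.79. In mock PMs, input on 3 of the 21 cytokine peaks was higher and on 1 lower in Adap-/- than in WT, with a median of 0.15. Between genotypes after LPS, Cxcl2, Il1b, Cxcl3 and Lif rose in Adap-/- PMs and Il1rn, the antagonist of the interleukin 1 receptor, fell. Cxcl2 had 15717 and 21586 against 10557 and 6686 CPM (log2 fold change 1.11, edgeR adjusted p = 0.00107), Il1b 9692 and 15313 against 6803 and 4668 (1.12, edgeR adjusted p = 0.000409) and Il1rn 1288 and 1023 against 2509 and 2819 (−1.20, edgeR adjusted p = 3.9e-06). The ratio of IP to input did not pass the unadjusted thresholds for any cytokine peak in this comparison (median 0.20), whereas 16 of the 21 had a lower ratio after LPS in each genotype at these thresholds, with medians of −5.75 and −5.33. When the mock replicates set apart were left out, 15 were lower in each genotype, with medians of −2.14 and −2.79.

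Interferon-stimulated genes rose with LPS in both genotypes, and after LPS the few called between genotypes were lower in Adap-/- PMs. Of 56 listed, 43 had a peak and 31 a stop codon peak, 44 peaks in all, of which 42 were tested in input. After LPS 41 rose and 0 fell in each genotype, with median log2 fold changes of 4.79 in WT and 4.44 in Adap-/- PMs. In Adap-/- LPS against WT LPS PMs 0 rose and 4 fell, with a median of −0.34 against −0.06 for all stop codon peaks, and in mock PMs 2 rose and 1 fell, with a median of 0.07. Among these 4, Cmpk2 had 9154 and 9039 against 24111 and 24430 CPM (−1.42, edgeR adjusted p = 2.22e-06), a 400-base peak of Ifit3 had 210 and 117 against 561 and 474 CPM (−1.65, edgeR adjusted p = 6.28e-06) and a 200-base peak of Ifit1 had 77.0 and 59.1 against 153 and 149 CPM (−1.14, edgeR adjusted p = 3.45e-05). Ifit2 and Gbp2 rose by 7.25 and 4.57 with LPS in WT PMs. Their ratios passed the unadjusted thresholds on the lower side for 26 of 43 tested peaks in WT and 18 of 43 in Adap-/- PMs after LPS, and for none between the genotypes in either treatment. Of the same 43 peaks without the mock replicates set apart, 14 were lower and 1 higher in WT and 19 lower and 1 higher in Adap-/- PMs after LPS, and 5 were higher in Adap-/- than in WT mock PMs.

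Of 51 Toll-like receptor and NF-kB genes, 36 had a peak and 22 a stop codon peak, 26 peaks in all. Input on 13 rose in WT and on 15 in Adap-/- PMs and none fell, with medians of 1.03 and 1.09. Traf1, an adaptor of TNF receptors, rose by 4.79 and 4.48, and its log2 ratio of IP to input was 1.06 ± 0.83 over the 8 replicates. Tlr2, a receptor for bacterial lipoproteins, rose by 3.05 and 2.25 and Tnfaip3, the NF-kB inhibitor A20, by 2.90 and 2.73, while Ikbke had 0.77 and 0.64. No peak of this list was called between the genotypes in input.

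Feedback inhibitors of signalling had 20 of 31 genes with a stop codon peak, 22 peaks with 21 tested. After LPS 9 rose and 3 fell in WT and 8 rose and 2 fell in Adap-/- PMs. Socs3, a suppressor of cytokine signalling, rose by 4.77 and 5.25, and Zfp36, an RNA-destabilizing protein, had 1.02 and 0.95. Atf3, a stress-induced repressor, had 0.45 and 0.47 with LPS and was 0.81 log2 units lower in Adap-/- LPS than in WT LPS PMs (edgeR adjusted p = 8.96e-05, under 2-fold), and Ptpn1 had 0.15 and 0.28. Of 38 macrophage identity genes, 10 had a stop codon peak, 12 peaks in all, of which 3 rose and 5 fell in WT and 1 rose and 5 fell in Adap-/- PMs. Clec7a, the beta-glucan receptor, fell by 1.73 and 1.69, and the protease gene Ctsd had −1.04 and −1.0. Spi1, the lineage factor PU.1, had 0.28 and 0.24, and Cebpb 1.06 and 0.96. Spi1 and Cebpb were captured at 0.96 ± 0.39 and 1.19 ± 0.36, and Clec7a and Ctsd at −1.26 ± 0.17 and −1.27 ± 0.18. Of 36 lysosome, autophagy and lipid genes 9 had a stop codon peak, 10 peaks in all, of which 0 rose and 3 fell in WT and 0 rose and 2 fell in Adap-/- PMs. The autophagy gene GABARAPL1 had −0.87 and −0.69, and the cholesterol exporter gene Abca1 0.51 and 0.40.

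**Figure D5:**
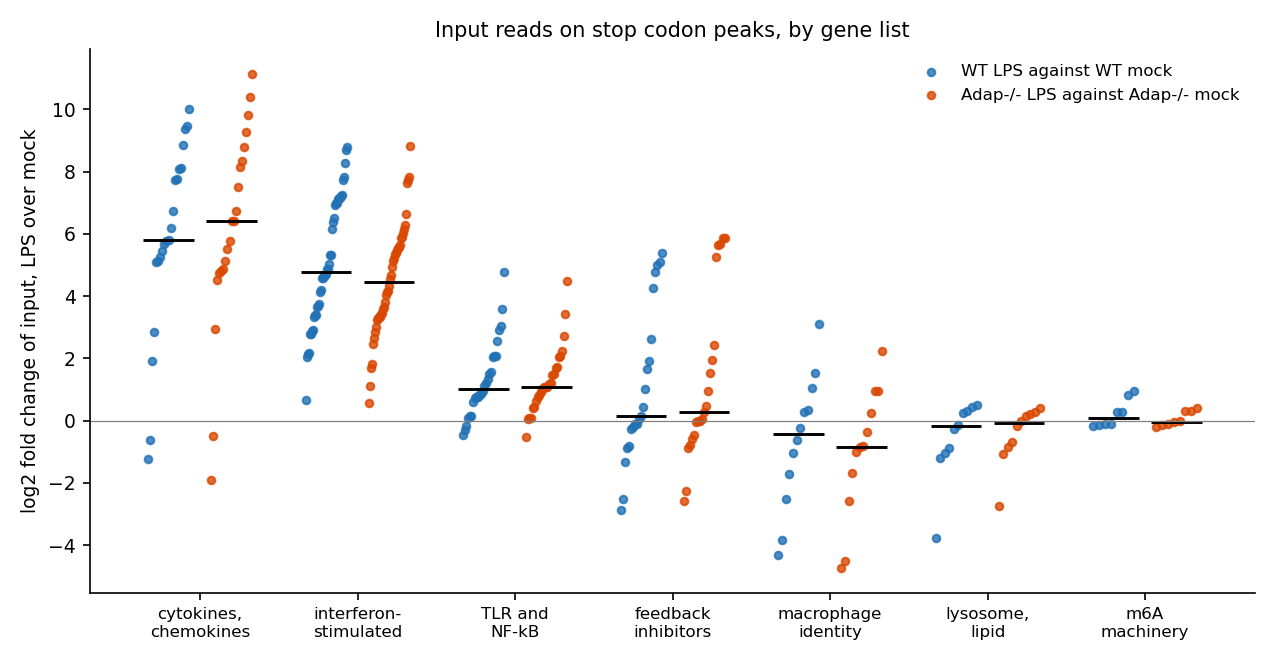
Log2 fold change of input reads, LPS over mock, for each tested stop codon peak of 7 gene lists; points are peaks, blue for WT and red for Adap-/- PMs, and black bars are medians. The cytokine and interferon lists have medians between 4.44 and 6.41, and the m6A machinery lies near 0.

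The m6A machinery itself carried 8 stop codon peaks on 7 of its 27 genes, 15 of which had a peak of any class. None was called in input or ratio in any comparison, with input medians of 0.09 and −0.03 after LPS. Wtap, the splicing-linked partner of the writer complex, had 2 peaks at −0.11 ± 0.18 and −0.65 ± 0.20, and its input changed by 0.94 log2 units after LPS in WT PMs (edgeR adjusted p = 7.41e-06, under 2-fold). The writer-complex gene Cbll1 stood at 0.60 ± 0.27 and the reader gene Hnrnpa2b1 at −1.01 ± 0.28. Mettl3 and Igf2bp2 had no peak.

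Of the genes the study follows, Spry1, an inhibitor of receptor tyrosine kinase signalling, had a peak at its start codon and none at its stop codon. Pou3f1, a POU-domain transcription factor, had a stop codon peak (chr4:124552724-124552949) with 2.66 and 2.23 in Adap-/- LPS, 2.37 and 1.99 in Adap-/- mock, 1.66 and 1.77 in WT LPS and 1.59 and 0.59 in WT mock PMs. All Adap-/- replicates were above all WT replicates, yet the fitted difference after LPS was 0.83 (edgeR adjusted p = 0.806). Its input was raised by LPS by 3.73 log2 units in WT and 4.09 in Adap-/- PMs. The mock libraries held only 6 and 7 input reads in WT and 1 and 3 in Adap-/- PMs, on which the mock ratios also rest. Its input was 1.37 log2 units lower in Adap-/- than in WT LPS PMs (edgeR adjusted p = 0.00208). Cish, a suppressor of STAT5 signalling, on a peak shared with ENSMUSG00000090570, had a genotype difference in ratio of 1.16 after LPS (edgeR adjusted p = 0.842). The 1225-base stop codon peak of Cd300lb had −1.04 (unadjusted p = 0.0253, edgeR adjusted p = 0.652), and its input was 1.21 log2 units lower in Adap-/- than in WT LPS PMs (edgeR adjusted p = 3.3e-05).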

How the data were processed

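MeRIP-seq was performed by the authors on total RNA of PMs, fragmented to about 100 nt and divided into input and anti-m6A IP. The submitters' processing notes name Bowtie2 2.2.8, MACS2 2.1.2, DiffBind 2.8 and GRCm39, with no role for each. The deposited table holds raw read counts per peak for 16 libraries, 1 line per peak and transcript (8094 lines), reduced here to 7069 distinct peaks. Strand was not given in the sources used here, so reads of overlapping genes cannot be told apart. Symbols are as deposited. The comparison columns of the authors (fold changes and p-values) were not used.

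Counts were tested with edgeR 4.0.16 (R 4.3.3; TMM scaling, filterByExpr set to at least 10 counts, and 15 in total, quasi-likelihood F-test, Benjamini-Hochberg adjustment over all peaks that passed). IP-to-input contrasts came from 16 libraries with 8 means, and input contrasts from the 8 input libraries. Calls of the ratio used over 2-fold with an unadjusted p below 0.05, and separately an adjusted p below 0.05. Calls of the input used an adjusted p below 0.05 with over 2-fold. Levels were log2 ratios of TMM-scaled CPM plus 1 and were tested by exact permutation over replicates (Python 3.11.15, scipy 1.17.1). A fold against 0 reads used a floor of 3 reads per library. The biological coefficient of variation was 30.6% for the ratio and 8.92% for the input. In simulated counts, 200 peaks above a minimum of mean input reads were changed by 2 log2 units up or down. Each simulation gave all libraries 1 spread and so held no mock replicates set apart. The ratio test at a spread of 0.31 recovered 58 (29%) with 6 false calls. The input test at a spread of 0.12 recovered 191 (95.5%) with 3. Alternatives included DESeq2 1.42.0, other scalings, filters, blocks, leaving out each replicate, and leaving out both mock replicates set apart.

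Peaks were named by rule: the smallest p per ratio comparison (5 higher, 5 lower), the largest input changes, the extreme levels and within-gene differences, the list members of highest input, and the genes the study follows. Calls found without the set-apart replicates, and values named beside a result, were chosen after their values were seen. The members and gene lists were chosen with earlier results of these data known. Some peaks that the rule names are not reported here.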

Additional observations from a re-analysis of the deposited data

Results flagged for a closer look

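In 4 comparisons of the level at stop codons, every replicate of one group moved one way and every replicate of the other the opposite way. Stop codon peaks minus all other peaks was 0.070 log2 units higher in Adap-/- LPS than in WT LPS PMs, with 0.030 and 0.033 against −0.022 and −0.054. This difference was not tested within LPS PMs alone. Over both treatments the genotype split of this measure had an exact permutation p of 0.167. The same measure was −0.113 in WT LPS relative to WT mock PMs, where it was 0.036 and 0.114. Stop codon peaks minus coding sequence peaks changed by −0.208 from WT mock to WT LPS and by −0.195 from Adap-/- mock to Adap-/- LPS PMs. These last 3 were not tested within a genotype, and over both genotypes the LPS against mock split had an exact permutation p of 0.0556, the smallest the design allows.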

How the results depend on the processing

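The ratio calls depended on the settings. For Adap-/- LPS against WT LPS, a 1.5-fold threshold gave 150 stop codon peaks in place of 81, and adjusted calls numbered 10 with DESeq2, 2 with at least 10 input reads, and 0 with only the compared libraries or without both mock replicates set apart. For Adap-/- mock against WT mock, the 14 peaks became 7 with only the compared libraries, 42 without both mock replicates set apart and 30 at 1.5-fold. For WT LPS against mock, adjusted calls were 72 with DESeq2, 1 with at least 10 input reads, 1 with only the compared libraries and 27 without both mock replicates set apart. For Adap-/- LPS against mock, 1.5-fold gave 217 peaks in place of 130, and adjusted calls were 47 with DESeq2 and 48 without both mock replicates set apart. DESeq2 made 1 adjusted interaction call. At 1.5-fold the input gave 233 peaks between genotypes after LPS and 210 in mock PMs. These are counts of stop codon peaks without the shares over all peaks, and the cause of these differences was not tested.

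With each replicate left out in turn, counts at the unadjusted thresholds ranged from 49 to 133 (Adap-/- against WT LPS; 49 without WT LPS replicate 1, 133 without Adap-/- LPS replicate 1), 7 to 101 (mock; 7 without either WT LPS replicate, 68 without Adap-/- mock replicate 1, 54 and 101 without WT mock replicates 1 and 2), 67 to 302 (WT LPS against mock; 90 without WT LPS replicate 1, 67 and 302 without WT mock replicates 1 and 2), 80 to 209 (Adap-/- LPS against mock; 209 and 80 without Adap-/- mock replicates 1 and 2) and 41 to 142 (interaction; 98 and 88 without Adap-/- LPS replicates 1 and 2, 142 without WT mock replicate 2). Adjusted calls ranged from 0 to 4, 0 to 0, 0 to 27, 0 to 2 and 0 to 4, with the 4 after LPS reached without either Adap-/- LPS replicate, the 27 without WT mock replicate 2, the 2 without Adap-/- LPS replicate 1 and the 4 of the interaction without Adap-/- LPS replicate 1. Input counts ranged from 832 to 848 and 742 to 770 for LPS against mock in WT and Adap-/- PMs, 48 to 99 between genotypes after LPS (48 without Adap-/- LPS replicate 2) and 42 to 78 in mock PMs. Level differences ranged from 0.031 to 0.055 (all other peaks), 0.021 to 0.060 (coding sequence), 0.087 to 0.105 (3′ untranslated), 0.064 to 0.085 (within gene), 0.024 to 0.036 (Adap-/- minus WT) and −0.030 to −0.017 (LPS minus mock).

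Stop codon peaks minus all other peaks reached 0.112 with at least 10 input reads, 0.055 with library totals and 0.054 with means (exact permutation p = 0.00781, 0.0312 and 0.0391), and minus coding sequence peaks 0.083 with means (exact permutation p = 0.0469). The within-gene difference was 0.058 without both mock replicates set apart (exact permutation p = 0.0938). LPS minus mock reversed to 0.002 with at least 10 input reads and to 0.460 with library totals, and Adap-/- minus WT to −0.033 with library totals and −0.001 with means.

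The deviations of IP and input libraries of the same number correlated at 0.0883, 0.0375, 0.119 and −0.107 in the 4 groups, and the labels do not tie the numbers. With these pairs as a block, adjusted calls were 0 for Adap-/- against WT LPS, 2 for WT LPS against mock and 2 for Adap-/- LPS against mock, and with the WT mock numbers crossed in the block they were 9 and 10 for the LPS responses, with 23 peaks at the unadjusted thresholds in mock PMs. Of 3225 alternative values for the named peaks, input and ratio comparisons together, 3078 kept their side of the threshold, 135 lost the call and 12 gained it. A change of sign was counted only for peaks called in the main fit, and 0 of these reversed. The share of peaks holding GGAC was not run, since no genome of the build was used here. On the simulated counts for Adap-/- LPS against WT LPS, the ratio test recovered 29% of 200 changed peaks at a spread of 0.31 and 97.5% at 0.1.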
